A study of Homo sapiens with 32 samples.

Results

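Auxin was compared with vehicle in unstressed HCT116 cells whose IGF2BP3 carried a degron, in 8 of the 32 libraries of a SLAM-seq study, 4 with auxin and 4 with vehicle. The libraries were chosen by their labels alone. HCT116 is an established human colorectal carcinoma line, and both the tagged and the parental line carried OsTIR1 under a doxycycline-inducible promoter. In the tagged line both copies of IGF2BP3 were fused to mAID, a short degron. The auxin-treated cells received doxycycline (200 ng/mL, 24 h), the auxin IAA (500 µM, 9 h) and 4-thiouridine (s4U, 250 µM, 2 h), and their controls received doxycycline, DMSO in place of auxin and s4U in the same way. Neither group received tunicamycin, which stressed the endoplasmic reticulum (ER) in other libraries of the study (5 µg/mL, 5 h). Auxin and vehicle were also compared in 8 libraries of unstressed parental cells, which have OsTIR1 and no degron, and in 8 libraries of tunicamycin-stressed tagged cells, each 4 with auxin and 4 with vehicle. Each library came from 1 well. Nothing in the labels says whether the tagged line is 1 clone or whether wells came from separate cultures, so the p-values cover only differences among these wells. The labels of vehicle replicates 1 and 2 repeat the name of the tag, and those libraries were treated as the same line as replicates 3 and 4.

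IGF2BP3 is an RNA-binding protein of the fetal and tumour type that binds the 3′ untranslated parts of many mRNAs and is known to protect some of them from decay. In the degron system auxin joins OsTIR1 to the tagged protein, which is then ubiquitinated and destroyed by the proteasome. Auxin itself is an indole, and indoles are known ligands of the aryl hydrocarbon receptor (AhR), a transcription factor that turns on cytochrome P450 genes, so the parental cells show what auxin does where no protein is tagged. In SLAM-seq, s4U built into new RNA is read as T-to-C conversions: all reads of a gene give its level, the reads with conversions its newly made RNA ("labelled reads"), and their proportion its labelled share. Levels are given as CPM (counts scaled by TMM and library size to a common total), and differences as log2 of auxin over vehicle with the SE of the fit.

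Across the genes, total RNA of 76 of 11186 tested genes differed between auxin and vehicle in unstressed tagged cells at an adjusted p under 0.05 (edgeR quasi-likelihood test, Benjamini-Hochberg adjustment). Of these, 44 genes (0.393% of those tested) were higher with auxin and 32 (0.286%) lower. The higher genes had a median log2 difference of 0.90 (range 0.36 to 3.14) and the lower genes a median of -0.61. The 4 auxin values lay fully above or below the 4 vehicle values for all 76 genes, against 20.4% of all tested genes. The genes were called on these same values, so this is no separate support. The count depended on which libraries entered the fit. The smallest library of the study, replicate 1 of stressed parental cells with auxin, is not in the comparison, and without it 874 genes were higher (7.76%) and 920 lower (8.17%), all 76 among them. The fit of the 8 compared libraries alone called 2084 genes. In the fit of all groups the count was 2 without auxin replicate 2, 7 without auxin replicate 3, 230 without auxin replicate 1 and 87 without auxin replicate 4. Without vehicle replicates 1, 2, 3 and 4 in turn it was 7, 14, 20 and 6. The genes named are those of the fit of 32 libraries, and the part of the smallest library in the list counts is given beside them.

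The messenger of the tagged protein comes first. IGF2BP3 had 170, 130, 162 and 135 CPM with auxin and 154, 153, 154 and 162 CPM with vehicle, groups that overlap (log2 difference -0.06 ± 0.11, edgeR adjusted p 0.762). Auxin acts on the tagged protein, so this value is no check of depletion, and the protein was not analysed here. IGF2BP2, a close relative that also binds mRNA, stood at -0.05 ± 0.12 (edgeR adjusted p 0.835). IGF2BP1, the third member of the family, had 1 to 7 reads per auxin library and 1 to 10 per vehicle library, too few to test. The HCT116 epithelial markers EPCAM, KRT8, KRT18, KRT19 and CDH1 summed to between 2077 and 2271 CPM with auxin and between 2132 and 2480 CPM with vehicle. Within that sum EPCAM averaged 373 CPM with auxin and 275 CPM with vehicle, KRT8 324 and 242 CPM and CDH1 40.8 and 29.7 CPM, while KRT18 averaged 618 and 746 CPM and KRT19 829 and 1000.2 CPM. None of the 5 passed the threshold, and without the smallest library EPCAM and KRT8 rose and KRT19 fell. None of the 6 markers of other cell types (PTPRC, PECAM1, COL1A2, COL3A1, ALB, GFAP) was among the genes with a mean of 1 read per library.

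Genes of the AhR response were among those that rose. Of 12 listed AhR targets, 8 had reads and 7 were tested: 2 rose, none fell, and 6 stood above 0, with a median log2 difference of 0.69 against -0.0048 for all genes tested. Of all tested genes 0.393% were higher and 0.286% lower. The lists and their members were chosen with earlier results of these data known. CYP1A1 (chr15:74719542-74725528, hg38), the cytochrome P450 enzyme that is the textbook AhR target, had 7.56, 6.13, 8.73 and 6.88 CPM with auxin and 2.63, 1.96, 0.32 and 1.05 CPM with vehicle. Every auxin library was above every vehicle library, with a log2 difference of 2.31 ± 0.39 (edgeR adjusted p 0.00553). These levels rest on 22 to 27 reads per auxin library and 1 to 7 per vehicle library. CYP1B1 (chr2:38067509-38076151), a related enzyme, had 38.1, 26.5, 28.5 and 30.0 CPM with auxin and 18.1, 19.6, 16.5 and 21.5 CPM with vehicle. Its groups were apart, with a log2 difference of 0.69 ± 0.15 (edgeR adjusted p 0.0354), a call that ended in 6 of 19 other settings, each leaving out a single library. TIPARP, an enzyme that restrains AhR, had 49.1 to 85.5 CPM with auxin and 21.5 to 34.6 CPM with vehicle, and missed the threshold (1.23 ± 0.34, edgeR adjusted p 0.0634). NFE2L2, the regulator of the antioxidant response, averaged 130 ± 28.5 CPM with auxin and 62.7 ± 15.1 CPM with vehicle (SD, n = 4 each; edgeR adjusted p 0.0810). STC2 and NQO1, also with groups apart, stood at 0.54 ± 0.18 and 0.27 ± 0.12, and SLC7A5, an amino acid transporter, at -0.29 ± 0.13. Without the smallest library, where 7.76% of all genes were higher and 8.17% lower, 6 of the 7 rose, and SLC7A5 fell. The 7 listed proteins of the pathway itself, AHR and ARNT among them, held no call in the fit of 32 libraries.

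ALDH1A3 (chr15:100879831-100916626), which makes retinoic acid from retinaldehyde, had the smallest p of all genes. Its level was 295, 274, 349 and 336 CPM with auxin and 187, 222, 203 and 205 CPM with vehicle, a log2 difference of 0.62 ± 0.09 (edgeR adjusted p 0.00219). The call held under all 19 other settings and left-out libraries, as did that of CYP1A1 under the 18 in which it was tested. ALDH1A3 was the only call among 13 tested genes of retinoid metabolism and response, whose median was -0.11, while 0.393% of all tested genes were higher.

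The promoters of both genes show the context of these values. The windows run from 250 bases before to 50 after the RefSeq start (GRCh38.p14), and capitals mark GCGTG, the core of the AhR response element, or its reverse complement. CYP1A1 (chr15:74725479-74725778, minus strand) holds 1 core and ALDH1A3 (chr15:100879581-100879880, plus strand) holds 2. ALDH1A3 was added after its values were seen. CYP1B1 is not shown.
CYP1A1: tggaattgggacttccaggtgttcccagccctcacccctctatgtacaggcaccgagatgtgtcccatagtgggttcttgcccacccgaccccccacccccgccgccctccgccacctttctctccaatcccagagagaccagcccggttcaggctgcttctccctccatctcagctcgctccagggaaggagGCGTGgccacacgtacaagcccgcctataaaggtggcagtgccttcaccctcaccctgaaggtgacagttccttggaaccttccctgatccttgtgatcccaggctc
ALDH1A3: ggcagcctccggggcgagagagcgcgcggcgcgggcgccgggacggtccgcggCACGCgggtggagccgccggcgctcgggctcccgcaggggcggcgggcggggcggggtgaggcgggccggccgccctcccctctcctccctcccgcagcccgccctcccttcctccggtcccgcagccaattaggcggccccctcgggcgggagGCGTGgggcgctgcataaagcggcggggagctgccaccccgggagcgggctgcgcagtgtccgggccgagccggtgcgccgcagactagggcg
On either strand the core stood in 36.3% of all 27305 promoters of the table and in 52.1% of those of tested genes. It stood in 19 of 37 promoters of genes called higher and in 10 of 28 of genes called lower. A match describes the letters only.

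**Figure D1:**
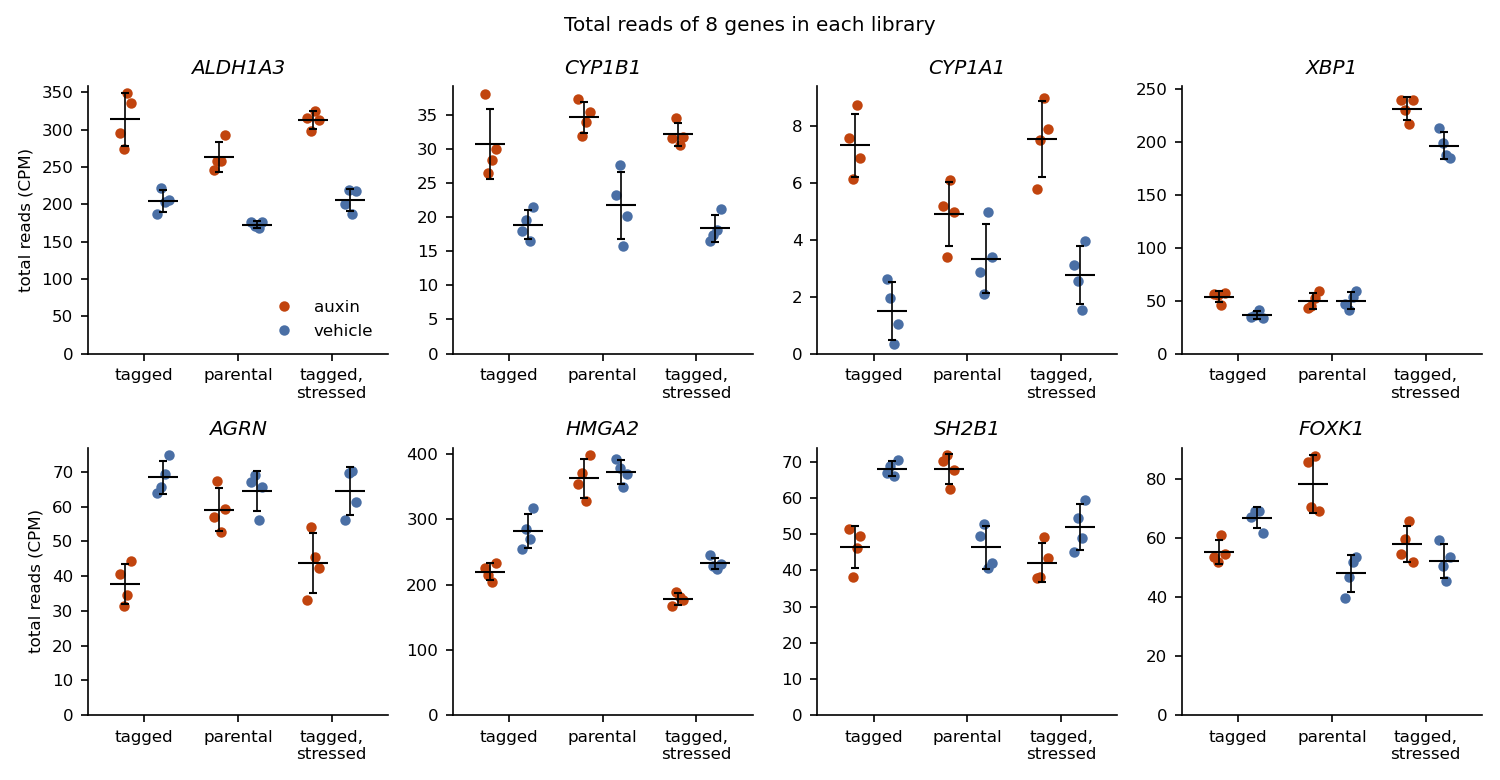
Total reads in CPM of 8 genes in each library (points), with mean and SD (bars, n = 4), for unstressed tagged, unstressed parental and stressed tagged cells, auxin on the left of each pair and vehicle on the right. ALDH1A3 and CYP1B1 stand higher with auxin in all 3 settings, AGRN and HMGA2 are lower with auxin in both tagged settings, and SH2B1 and FOXK1 differ in sign between unstressed tagged and parental cells.

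Several of the other large differences among the higher genes were of low-abundance transcripts. MAGEA3, a testis and tumour antigen, averaged 27.8 ± 19.9 CPM with auxin and 3.29 ± 1.77 CPM with vehicle (log2 difference 3.14 ± 0.73, edgeR adjusted p 0.0431). The auxin libraries themselves ran from 8.94 to 49.5 CPM, and its near-identical relatives make the gene assignment uncertain. LIPT2, a lipoyl transferase of mitochondria, had 5 to 25 reads per auxin library and 0 to 4 per vehicle library. NCSTN, a subunit of the γ-secretase complex, had 13.7, 34.3, 29.4 and 20.6 CPM with auxin and 5.64, 6.54, 4.53 and 5.25 CPM with vehicle (2.16 ± 0.52, edgeR adjusted p 0.0452). The calls of MAGEA3 and NCSTN each held under 11 of 19 other settings. ATG3, the conjugating enzyme that lipidates LC3 in autophagy, rose less and more evenly, to 74.9, 109, 91.9 and 83.1 CPM with auxin against 48.5, 51.3, 54.1 and 43.6 CPM with vehicle (0.86 ± 0.15, edgeR adjusted p 0.00689). CENPA, the histone variant of the centromere, stood at 1.35 ± 0.32 and ASF1A, a histone chaperone, at 1.51 ± 0.35. TYMS, the thymidylate synthase, stood at 0.94 ± 0.22 and SHMT1, an enzyme of the folate cycle, at 1.14 ± 0.27. ARHGEF40, SNX3, DOCK1, C3orf52 and BTBD10 completed the 12 largest, between 1.17 and 1.92.

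Among the lower genes, AGRN (chr1:1020120-1056116), the heparan sulfate proteoglycan agrin, had 40.6, 31.4, 34.6 and 44.3 CPM with auxin and 63.9, 65.7, 69.3 and 74.9 CPM with vehicle. The groups were far apart, with a log2 difference of -0.86 ± 0.15 (edgeR adjusted p 0.00553). C2CD2L, a phosphatidylinositol transfer protein of ER and plasma membrane contacts, had 24.1, 23.8, 27.8 and 31.1 CPM with auxin and 44.4, 41.8, 47.6 and 38.9 CPM with vehicle (-0.69 ± 0.12, edgeR adjusted p 0.00689). Both calls held under 18 of 19 other settings and ended without replicate 2 of auxin. The largest negative values, -1.49 for SLC6A9, a glycine transporter, -1.45 for RABL2A and -1.41 for CCDC28B, held under 15 of 19, 14 of 18 and 8 of 18 other settings, and RABL2A shares sequence with its near-identical copy RABL2B. UNG and LIG1, enzymes of DNA base excision repair and ligation, fell by 0.69 and 0.64 on the log2 scale. GSTP1, a glutathione transferase, averaged 1112 ± 260 CPM with auxin and 1749 ± 199 CPM with vehicle (-0.65 ± 0.15, edgeR adjusted p 0.0431). PFDN6, PSMB10, STEAP2, SCARA3, SLC7A6OS and SYMPK completed the 12 largest, between -0.86 and -0.70. The lower genes were more abundant than the higher ones, with a median of 140 CPM with vehicle against 23.2 CPM for the higher genes and 31.9 CPM for all tested genes. Their counted regions were shorter, with a median of 639.5 bases against 1037.5 for the higher genes and 1112 for all tested genes.

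**Figure D2:**
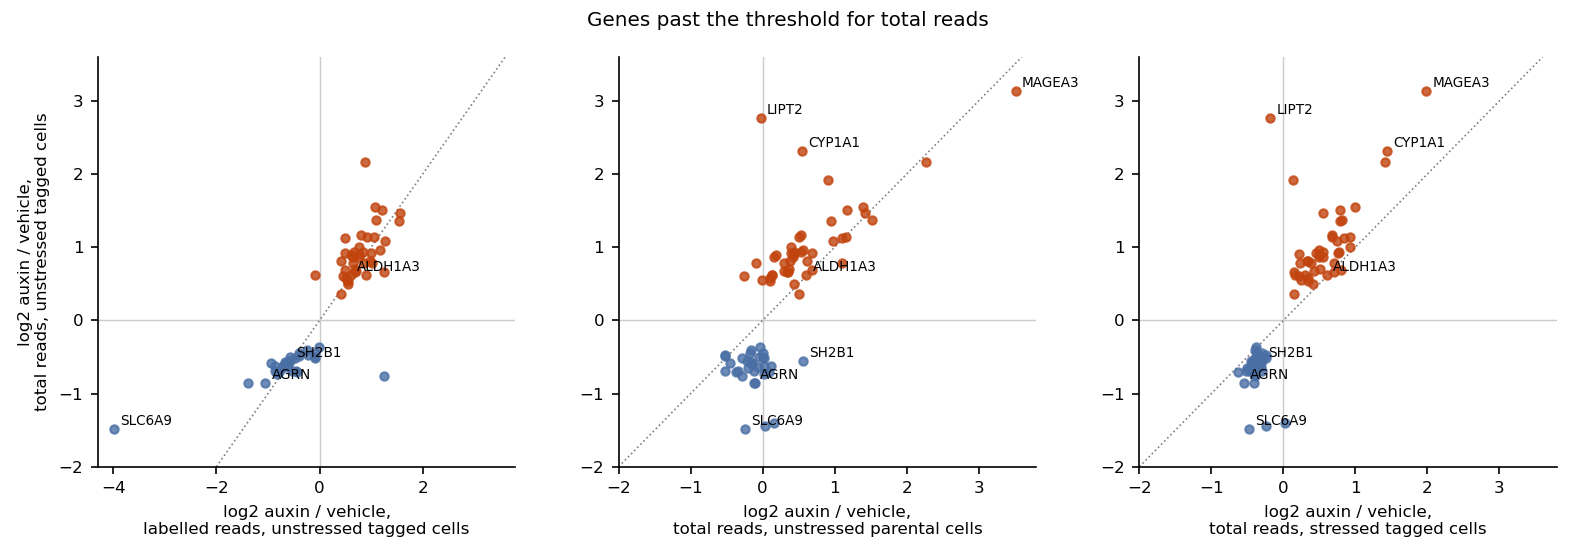
The 76 genes that differed in total reads, with their log2 auxin over vehicle in unstressed tagged cells (vertical axis) against that in labelled reads of the same cells, in total reads of unstressed parental cells and in total reads of stressed tagged cells (horizontal axes). The dotted line marks equal values. Orange points were called higher and blue points lower. Most orange points lie right of 0 in all panels, and LIPT2 and SH2B1 stand off the line in the parental panel.

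Of 23 measured genes named in the literature as IGF2BP3 targets, 21 were tested, and 1 rose and 1 fell (median 0.10, 12 above 0). Of all tested genes 0.393% were higher and 0.286% lower. HMGA2 (chr12:65824460-65966291), an architectural chromatin factor whose mRNA is a classic ligand of this protein family, had 225, 215, 204 and 234 CPM with auxin and 255, 285, 271 and 317 CPM with vehicle. No auxin value reached the lowest vehicle value (-0.36 ± 0.08, edgeR adjusted p 0.0431). HMGA2's labelled share was 39.8%, 31.6%, 38.4% and 35.9% with auxin and 30.5%, 30.8%, 32.9% and 29.1% with vehicle, groups that overlap. Its log2 difference of labelled against other reads was 0.49 (edgeR adjusted p 0.120), and its labelled reads stood at -0.02 ± 0.13. The call for total reads held under 12 of 19 other settings. In stressed tagged cells HMGA2 had 178 ± 9.27 CPM with auxin and 233 ± 8.72 CPM with vehicle (SD, n = 4 each; -0.39 ± 0.08, edgeR adjusted p 0.104). In unstressed parental cells it had 363 ± 29.7 CPM with auxin and 373 ± 18.0 CPM with vehicle (-0.04 ± 0.08). The tagged minus parental difference of HMGA2 was -0.32 ± 0.12 and missed the threshold (edgeR adjusted p 0.615, and 0.154 without the smallest library).

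CCNG1, a cyclin induced by p53, was the listed target that rose, with 68.4, 99.3, 70.5 and 68.5 CPM with auxin and 47.8, 52.6, 53.1 and 40.2 CPM with vehicle (0.67 ± 0.15, edgeR adjusted p 0.0354). IGF2, the growth factor mRNA that gave the family its name, had 93.1, 57.8, 77.3 and 82.5 CPM with auxin and 94.4, 94.8, 106 and 110 CPM with vehicle (-0.38 ± 0.22, edgeR adjusted p 0.329). CCND1, cyclin D1, averaged 951 ± 76.6 CPM with auxin and 1152 ± 26.9 CPM with vehicle (-0.28 ± 0.09, edgeR adjusted p 0.0899). Both had groups apart, and both fell, with HMGA2, in the fit without the smallest library. There the list held 1 gene higher and 3 lower of 22 tested, against 7.76% of all genes higher and 8.17% lower. MYC, another listed target, stood at 0.81 ± 0.31 (edgeR adjusted p 0.140) and at 0.93 in parental cells.

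Of 14 tested sensors and regulators, XBP1 rose and none fell, while 0.393% of all tested genes were higher and 0.286% lower. XBP1 (chr22:28794560-28800569), the transcription factor downstream of IRE1, had 56.0, 55.1, 45.9 and 56.9 CPM with auxin and 34.6, 36.6, 41.1 and 33.4 CPM with vehicle. The groups were apart (0.56 ± 0.11, edgeR adjusted p 0.0247). In parental cells XBP1 had 49.6 ± 7.31 CPM with auxin and 50.0 ± 7.73 CPM with vehicle, and the tagged minus parental difference was 0.57 ± 0.16 (edgeR adjusted p 0.371, and 0.0664 without the smallest library). Other members stood on both sides of 0, EIF2AK3 at 0.57 ± 0.41, PPP1R15B at 0.65 ± 0.24 and ATF4 at -0.37 ± 0.17. The 28 tested ER chaperones and folding enzymes held no call and had a median of -0.02. Among 32 targets of ATF4 and CHOP, SLC6A9 fell, and among 9 reported substrates of IRE1-dependent decay, SCARA3 fell. Without the smallest library, where 7.76% of all genes were higher and 8.17% lower, 3 of 15 sensors and regulators rose, ER chaperones held 6 higher and 3 lower of 28, and ATF4 and CHOP targets 5 and 4 of 32.

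Of the 28 gene lists, 18 held no call for total reads in the fit of 32 libraries, and 2, the IGF2BP family and the ubiquitin ligase machinery, held none without the smallest library. In the fit of 32 libraries 0.393% of all tested genes were higher and 0.286% lower. DNA replication held 1 gene that rose, TYMS, and 2 that fell, LIG1 and UNG, of 38 tested (median -0.11). Mitosis held CENPA of 32 (median 0.11), p53 targets held CCNG1 of 27, and xenobiotic metabolism held GSTP1 of 9. The listed proteasome genes and the ubiquitin ligase machinery that the degron uses held no call, with medians of 0.01 and 0.05. That list leaves out PSMB10, a proteasome subunit, which was called lower (-0.77 ± 0.16, edgeR adjusted p 0.0247). NRF2 targets had a median of 0.16 and immediate-early genes one of 0.20, with no call in either. Without the smallest library, where 7.76% of all genes were higher and 8.17% lower, DNA replication held 4 higher and 8 lower genes of 38, mitosis 9 and 2 of 32, the proteasome 7 and 5 of 30 and NRF2 targets 6 and 1 of 20. In that fit oxidative phosphorylation held 4 higher and 11 lower of 49, mRNA decay 2 and 5 of 40, cholesterol synthesis 3 and 4 of 25, p53 targets 1 and 4 of 27 and heat shock proteins 3 and 3 of 19.

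Ribosomal protein genes stood below 0 without single calls for total reads. All 32 tested small-subunit genes had a fitted difference below 0 (median -0.40, against -0.0048 for all genes), 25 of them with every auxin value below every vehicle value, against 10.1% of all tested genes. Of 46 large-subunit genes 7 stood above 0 (median -0.23), and 23 had all auxin values lower. RPS27, RPS19 and RPS4X stood at -1.10, -0.61 and -0.51. RPS4X averaged 2922 ± 579 CPM with auxin and 4170 ± 395 CPM with vehicle (SD, n = 4 each; edgeR adjusted p 0.0664). In the fit without the smallest library, 23 of the small-subunit genes fell and none rose, and 15 of the large-subunit genes fell while RPL22 rose. Of all genes in that fit, 8.17% were lower and 7.76% higher. In labelled reads the medians were -0.44 and -0.28, with RPS14 and RPS24 called lower. The same lists had medians of -0.35 and -0.27 in auxin-treated parental cells and -0.30 and -0.17 in auxin-treated stressed tagged cells.

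**Figure D3:**
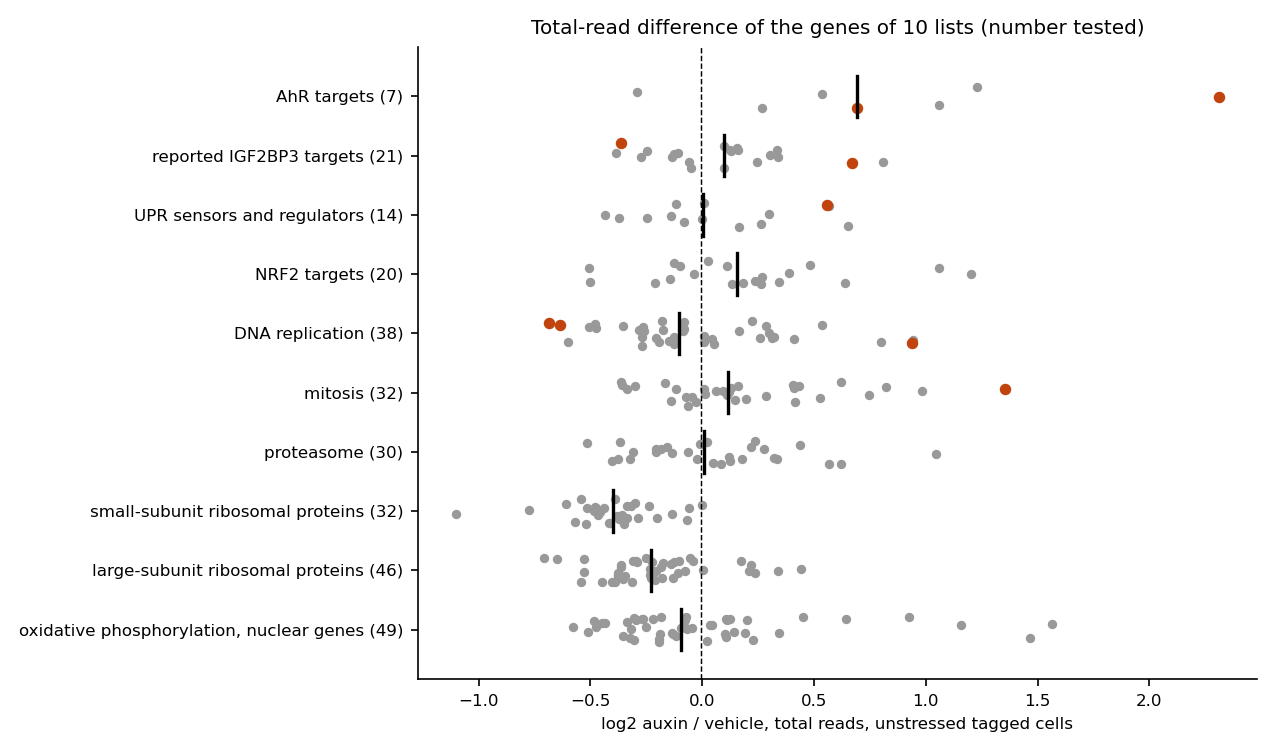
Log2 auxin over vehicle of total reads in unstressed tagged cells for the tested genes of 10 lists (points), with each list's median (black bars) and the median of all genes (dashed line). Orange points passed the threshold. The 32 small-subunit ribosomal protein genes all lie below 0, and the AhR targets have the highest median of the 10, 0.69. The lists and their members were chosen with earlier results of these data known.

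Properties of the libraries moved with auxin beside the ribosomal protein genes. Covered T positions per read averaged 23.15 ± 0.66 with auxin and 21.84 ± 0.19 with vehicle (SD, n = 4 each), and the groups were apart (exact two-sided permutation p 0.0286, the smallest that 4 against 4 allows, or 0.0571 adjusted over 4 library measures). The 10 most read genes of each library took 4.78% ± 0.13 of reads with auxin and 5.29% ± 0.17 with vehicle (exact permutation p 0.0286, adjusted 0.0571). In 5 equal bins of genes by the T share of their counted region, the median log2 difference was -0.22 in the lowest bin and 0.17 in the highest. The regions counted for small-subunit and large-subunit ribosomal protein genes had median T shares of 30.7% and 30.1%, close to the 29.8% of all genes, but were short, with medians of 56 and 70.5 bases against 1112. By region length, the shortest of 5 bins (11 to 364 bases) had a median of -0.13, with 5 genes called higher and 14 lower. The longest bin had a median of 0.02, and the same bins stood at -0.16 and 0.04 in parental cells. By labelled share in vehicle-treated parental cells, the medians ran from -0.15 in the lowest of 5 bins to 0.11 in the highest. The auxin differences of parental and of stressed tagged cells had the same sign in the lowest and highest bin of each order. Over 5593 genes the log2 differences also followed the leading axis of spread within groups, computed without the smallest library (Pearson r -0.89, Spearman rho -0.86; genes are not independent replicates), as did those of parental cells (r -0.85). The part of base composition, of region length and of this axis in the differences of single genes was not tested.

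**Figure D4:**
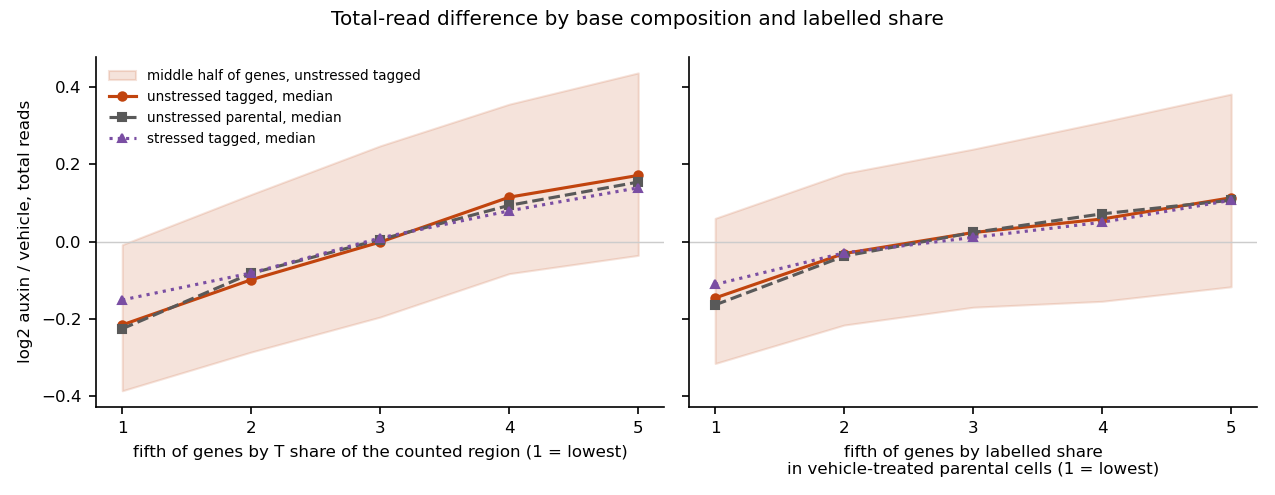
Median log2 auxin over vehicle of total reads in 5 equal groups of genes ordered by the T share of the counted region (left) or by the labelled share in vehicle-treated parental cells (right), for unstressed tagged, unstressed parental and stressed tagged cells. Shading spans the range between the quartiles in unstressed tagged cells. The medians climb from -0.22 to 0.17 over T share, with the 3 lines close together.

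Labelled reads gave fewer calls. Of 8980 genes tested for labelled reads, 12 were higher with auxin (0.134%) and 9 lower (0.1%), and the fit without the smallest library called 73 (0.795%) and 95 (1.04%). The split moved with the scaling, to 10 higher and 46 lower with the scaling of total reads and to 15 and 6 with DESeq2 size factors. Among the higher genes were CENPA (1.54 ± 0.30), SARAF, which damps store-operated calcium entry (1.24 ± 0.25), the tetraspanin CD9 (1.70 ± 0.39) and TYMS (0.85 ± 0.20). The ER hydroxylase ASPH stood at 1.00 ± 0.20 in its most read region, but at 0.11 in its longest region (edgeR adjusted p 0.901), so that call depends on the region that stands for the gene. CENPA had 114, 136, 106 and 74.5 labelled CPM with auxin and 43.0, 41.3, 38.4 and 25.8 with vehicle. Every auxin value was above every vehicle value (edgeR adjusted p 0.0109). SEC24D, a COPII coat protein, HMGN4, SEC14L1, PDXDC1, KLHL15, AZIN1 and F2RL1 were the other higher genes, between 0.71 and 1.76. RPS14, a small-subunit ribosomal protein, had 308, 270, 362 and 398 labelled CPM with auxin and 589, 408, 563 and 695 with vehicle (-0.76 ± 0.15, edgeR adjusted p 0.0119). QARS1, the glutaminyl-tRNA synthetase, stood at -1.09 ± 0.23, GSTP1 at -0.74 ± 0.16, KHSRP, which promotes decay of AU-rich mRNAs, at -0.59 ± 0.13 and AGRN at -1.05 ± 0.24. TATDN2, PGM3, RPS24 and MMS19 were also lower, between -1.03 and -0.54. Several labelled calls held in only some of the other settings, MMS19 in 7 of 20, AZIN1 in 9 of 20, RPS24 in 9 of 19 and F2RL1 and PGM3 in 11 of 20 each. All 21 genes had the same sign in total reads, and 7 of them were called there too. Conversely, 39 of 40 testable genes that rose in total reads and 29 of 30 that fell had the same sign in labelled reads. Total reads include the labelled ones, so the readings are not independent. Over all 8980 genes the log2 differences of both readings also correlated (Pearson r 0.71, genes are not independent replicates). Equal signs of the called genes are therefore no separate support.

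The labelled share held no call in 8980 genes (edgeR, 0%), with 652 at an unadjusted p under 0.05. A limma fit of the log2 ratios called 0 as well, with 545. In simulated data the edgeR fit called 0% of true log2 differences of 0.5 and 18% of those of 1. Absent calls therefore do not show that labelled shares were equal. The smallest adjusted p was 0.0571, for CLDN7, a tight-junction claudin, with a labelled share of 13.8%, 16.0%, 13.1% and 9.91% with auxin and 6.79%, 7.59%, 12.1% and 5.71% with vehicle, groups that overlap. QARS1 had 4.99%, 3.92%, 3.84% and 4.24% with auxin and 6.87%, 8.68%, 9.72% and 7.89% with vehicle, groups that do not. Its log2 difference of labelled against other reads was -0.91 (edgeR adjusted p 0.120). Over whole libraries, labelled reads made up 12.07% ± 0.64 of reads with auxin and 12.63% ± 0.75 with vehicle (exact two-sided permutation p 0.286). Conversions were found at 0.997% ± 0.075 of covered T positions with auxin and 1.129% ± 0.082 with vehicle (SD, n = 4 each; exact permutation p 0.0857, adjusted over 4 measures 0.114).

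**Figure D5:**
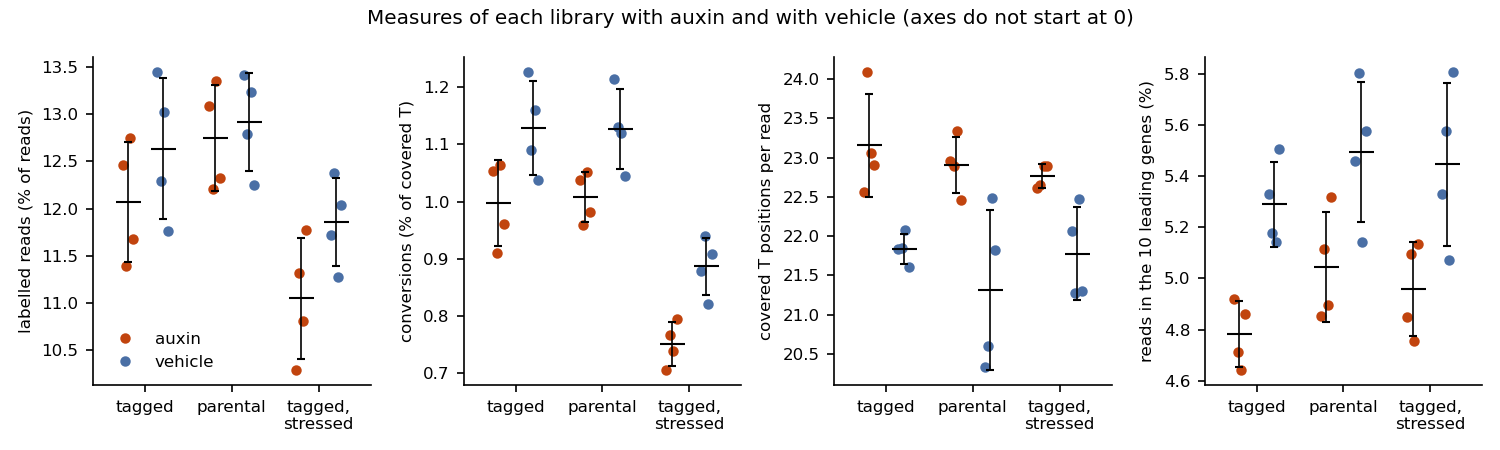
Labelled reads, conversions, covered T positions per read and reads in the 10 most read genes for each library (points), with mean and SD (bars, n = 4), auxin on the left of each pair and vehicle on the right, in unstressed tagged, unstressed parental and stressed tagged cells; the axes do not start at 0. Covered T positions per read are higher and the share of the most read genes lower with auxin, by group means, in all 3 settings.

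In unstressed parental cells, which lack the degron, auxin against vehicle called 805 genes (7.2% of 11186), 542 higher and 263 lower. Of the 44 genes that rose in tagged cells, 40 had the same sign in parental cells (median 0.47) and 16 were called there too. Of the 32 that fell, 22 had the same sign (median -0.14) and 4 were called. Over all tested genes 73.1% had the same sign in both lines. Among the largest rises, MAGEA3 stood at 3.52 in parental cells, NCSTN at 2.27, C3orf52 at 1.52, DOCK1 at 1.43 and SNX3 at 1.39. ASF1A stood at 1.17 and SHMT1 at 1.15, and all of these were called there. ARHGEF40, CENPA and BTBD10 stood at 0.91, 0.95 and 0.54 and LIPT2 at -0.03, none of them called. ALDH1A3 rose alike, to 263 ± 20.1 CPM with auxin against 173 ± 4.37 CPM with vehicle in parental cells (0.61 ± 0.09, edgeR adjusted p 0.00147), and the tagged minus parental difference was 0.01 ± 0.13. CYP1B1 rose by 0.68 ± 0.14 there (edgeR adjusted p 0.00901), a difference between lines of 0.01 ± 0.21. CYP1A1 had 4.91 ± 1.12 CPM with auxin and 3.33 ± 1.22 CPM with vehicle in parental cells (0.55 ± 0.34, edgeR adjusted p 0.313), and its difference between lines, 1.76 ± 0.52, missed the threshold (edgeR adjusted p 0.415). AGRN stood at -0.13 ± 0.14 in parental cells and ATG3 at 0.16 ± 0.15. Their differences between lines, -0.74 ± 0.20 and 0.71 ± 0.21, also missed it (edgeR adjusted p 0.339 and 0.451), and AGRN's stood at an adjusted p of 0.0484 without the smallest library and 0.0643 with only the groups compared.

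The test of the difference between lines called 2 genes for total reads (0.0179%). SH2B1 (chr16:28846606-28874205), an adaptor of insulin and leptin receptor signalling, had 51.6, 38.2, 46.3 and 49.5 CPM with auxin and 66.9, 69.0, 66.1 and 70.7 CPM with vehicle in tagged cells. In parental cells SH2B1 had 70.2, 71.9, 62.4 and 67.9 CPM with auxin and 49.6, 52.9, 40.7 and 42.1 CPM with vehicle. So it fell in tagged and rose in parental cells, with a difference of -1.12 ± 0.17 (edgeR adjusted p 0.00396) that held under all 27 other settings and left-out libraries. The call in tagged cells alone (-0.56 ± 0.12, edgeR adjusted p 0.0354) ended in 6 of 19 other settings, each leaving out a single library. In stressed tagged cells SH2B1 stood at -0.30 ± 0.12. FOXK1 (chr7:4682295-4771442), a forkhead factor that represses autophagy genes, had 53.6, 52.0, 61.1 and 54.7 CPM with auxin and 67.3, 69.3, 69.3 and 61.7 CPM with vehicle in tagged cells. In parental cells FOXK1 had 85.9, 70.6, 88.0 and 69.2 CPM with auxin and 39.8, 47.0, 51.8 and 53.8 CPM with vehicle, and its difference between lines was -0.98 ± 0.17 (edgeR adjusted p 0.0149), which held under 20 of 27. FOXK1 stood at -0.27 ± 0.12 in tagged cells (edgeR adjusted p 0.204) and rose by 0.70 ± 0.12 in parental cells (edgeR adjusted p 0.00369). Without the smallest library 15 genes differed upward (0.133%) and 51 downward (0.453%), both of these included. The listed IGF2BP3 targets among them were IGF2 (-0.71 ± 0.15, edgeR adjusted p 0.0111) and HMGA1 (-0.54 ± 0.12, edgeR adjusted p 0.0220), both lower. With only the groups compared, which also leaves out that library, neither passed (edgeR adjusted p 0.0714 and 0.0643). HMGA1 itself stood at -0.14 ± 0.20 in tagged cells and 0.41 in parental cells. The edgeR fits called no gene for the difference between lines in labelled reads (461 at an unadjusted p under 0.05; DESeq2 0 calls and 463) or in labelled share (417; limma 0 calls and 339).

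In tunicamycin-stressed tagged cells auxin against vehicle called 2 genes (0.0179%), ALDH1A3 (0.60 ± 0.09, edgeR adjusted p 0.00333) and CYP1B1 (0.80 ± 0.15, edgeR adjusted p 0.0344), both also called without stress. Of the genes that rose without stress 43 of 44 had the same sign under stress (median 0.53), and of those that fell 31 of 32 (median -0.39), against 78.1% of all tested genes with equal signs. CYP1A1 had 7.54 ± 1.32 CPM with auxin and 2.78 ± 1.02 CPM with vehicle under stress (1.43 ± 0.34, edgeR adjusted p 0.168). AGRN stood at -0.55 ± 0.14. The difference between the stressed and the unstressed auxin effect called no gene (152 at an unadjusted p under 0.05; DESeq2 0 calls and 166).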

How the data were processed

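Each library was a 3′ end SLAM-seq library (QuantSeq). The authors deposited counts per transcript region, as Slamdunk tables per the file headers: whole reads, reads with T-to-C conversions, covered T positions and conversions. The build is hg38 per the submitters' processing notes; the Slamdunk version and conversion threshold are not given in the sources used here. Transcripts were matched by identifier to RefSeq names (40006 of 40767 curated mRNA identifiers) and each gene was represented by its 1 region with the most reads over all libraries (the longest region was an alternative); 52.9% of named genes had several. Genes with a mean under 1 read and 72 with identical counts to another were dropped, leaving 12425. Unmatched identifiers held 36.9 to 37.6% of reads in the 8 libraries, and reads in named genes were 2.67 to 3.88 M per library.

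All 32 libraries entered 1 edgeR 4.0.16 fit (R 4.3.3; TMM, robust quasi-likelihood, minimum count 10) with 8 group coefficients, and p-values were adjusted by Benjamini-Hochberg over all genes tested (threshold 0.05). Labelled reads had their own TMM factors. The labelled share was fitted as labelled against other reads, each kind with its own TMM factors, with a term per library. Library measures were compared by exact permutation. DESeq2 1.42.0, limma 3.58.1, other filters and scalings, and left-out libraries were alternatives. The fit was tested on simulated data with the same spread for all genes of a kind of reads, set in advance and not estimated from these libraries. No simulated library was made to stand apart from its group, so the percentages need not hold for these data. For total reads it called 22% of true log2 differences of 0.5 and 90% of those of 1. For labelled reads it called 9% and 59%, and for the labelled share 0% and 18%. Named genes were the 12 largest called changes in each direction whose groups did not overlap, called members of the 28 lists, the IGF2BP family and genes called for differences between contrasts; where fewer than 5 passed, the smallest p values were given as values. Members and lists were chosen with earlier results of these data known. TIPARP, NFE2L2, STC2, NQO1, SLC7A5, IGF2, CCND1, MYC, HMGA1, EIF2AK3, PPP1R15B, ATF4, RPS27, RPS19, RPS4X and RPL22 were named after their values were seen.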

Additional observations from a re-analysis of the deposited data

Results flagged for a closer look

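Among 158 groups of 4 libraries checked for a library far from the other 3, 6.33% held one, and chance gives about 5%. Auxin replicate 2 was far above its group for ASPH (385 CPM), BTBD10 (48.0 CPM), CCNG1 (99.3 CPM) and SHMT1 (65.9 CPM). Auxin replicate 3 was low for XBP1 (45.9 CPM). Vehicle replicate 2 was high for F2RL1 (41.8 CPM) and low for MMS19 (208 CPM). Vehicle replicate 4 was low for CD9 (22.1 CPM) and high for IGF2BP3 (162 CPM), and vehicle replicate 3 was high for BTBD10 (16.5 CPM).

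The auxin effect differed between tagged and parental cells by the test of the difference itself for SH2B1 (log2 difference of effects -1.12) and for FOXK1 (-0.98).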

How the results depend on the processing

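No result changed direction under an alternative. The 76 calls for total reads became 2084 with only the 8 compared libraries, 46 with no low-count filter, 121 with a stricter one, 1794 without the smallest library, 539 by DESeq2 and 189 by limma-voom. With the leading axis of spread within groups as a covariate they became 2785, and 3277 where axis and fit left out the smallest library, a setting chosen after seeing the data. The axis was computed from the spread within groups of these same reads, so more calls with it are no independent check. Leaving out single libraries gave 2 to 230. The 21 calls for labelled reads became 303, 36 (stricter filter), 168, 356, 425, 40 (DESeq2) and 56 when scaled by total reads, and 0 to 29 with libraries left out. The 0 calls for labelled share became 10, 1 (stricter filter), 1 (without the smallest library), 9, 13 and 5 without centring, and 0 to 2 with libraries left out. The 2 calls for the difference between tagged and parental cells became 34, 66, 251, 611 and 20 (DESeq2), and 1 to 4 with libraries left out; for labelled reads, 0 became 20 under the added axis setting and stayed 0 with single libraries left out. The cause of these shifts was not tested.

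The labelled percentage of libraries differed by -0.563 points (-0.589 over all transcripts; -0.852 to -0.291 with libraries left out). The conversion percentage differed by -0.132 points (-0.139 over all transcripts), by -0.162 to -0.0989 with libraries left out, and by -0.162 (exact permutation p 0.0286) without vehicle replicate 4.

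Same-number correlations of auxin and vehicle libraries were 0.085, 0.283, 0.112 and 0.321, and 1 of the 4 libraries correlated best with its own number. With a replicate block the calls were 81 for total reads, 17 for labelled reads, 0 for labelled share and 2 for the difference between lines. The block ended the calls of AZIN1, F2RL1, RPS24 and MMS19 for labelled reads and of SCARA3 for total reads. With the longest region per gene ASPH, AZIN1, F2RL1, MMS19 and PGM3 were no longer called for labelled reads. Depth limits low genes most: CYP1A1 rests on 1 to 7 reads per vehicle library.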
